A study of Mus musculus with 12 samples.

Results

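The miRNA precursors of the mouse that carry the number 1000 or above in their name were examined in small RNA libraries of the cerebral cortex. Numbers are given in the order of registration, so that these entries joined the catalogue late. Members were selected on their measured values, as precursors with a score above 0 in at least 1 of 12 libraries, and mmu-mir-1298 was left out. Of 227 such precursors, 62 passed, among the 589 precursors of the whole table. The other 165 were at 0 in every library, so that the 62 do not stand for the entire numbered series. Since a score above 0 chose the members, the numbers of libraries above 0 that follow are a description.

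A miRNA gene is transcribed as a longer RNA that folds into a hairpin, and the enzymes Drosha and Dicer cut it to a mature strand that guides the silencing of messenger RNAs through its seed. Some hairpins, called mirtrons, are short introns that splicing releases, and they bypass Drosha. Deep sequencing also added hairpins on the strand opposite to a known miRNA gene, and entries that overlap other small RNAs.

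The cortices came from female C57BL/6J mice, either wild type (WT) or without the gene for the innate immune receptor TLR4 (TLR4-KO), which were 7 weeks old at the start. For 5 months they drank water or water with 10% (v/v) ethanol, which gave 4 groups, WT and TLR4-KO on water and WT + EtOH and TLR4-KO + EtOH on ethanol. Each group has 3 libraries, each from the pooled RNA of 3 mice, so that the spread between libraries is one between pools. WT and TLR4-KO mice came from separate sources, and genotype and origin cannot be told apart. Messenger RNA is not measured here, so that the loss of Tlr4 could not be looked up.

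The deposited values are scores without a unit, and their exact formula is not given in the sources used here. They were treated as scaled and log-like. The highest value is the same in each library, 134.8, and the median of the precursors above 0 in all 12 libraries lay between 48.9 and 49.2. Exact scores also recur between libraries, such as 70.5964 for mmu-mir-3074-1 in replicate 3 of every group. Whether ranks were matched to a common scale was not tested, and differences between scores are not folds. The table holds no counts, so that the depth of a library and the counting error of a score cannot be taken from it, and a 0 means only that a precursor is listed at 0. Another normalized listing of these libraries by the authors, not used here for values, does not place its zeros in the same cells. The libraries did not share a lowest level. The lowest score above 0 was 1.25 in WT replicate 1 and WT + EtOH replicate 1 and reached 14.1 in TLR4-KO replicate 3. Members above 0 numbered 43, 41 and 36 in the WT libraries, 46, 39 and 34 in WT + EtOH, 41, 33 and 32 in TLR4-KO and 40, 36 and 36 in TLR4-KO + EtOH. The lowest score went with the number of precursors above 0, from 270 in the libraries at 1.25 to 216 in the library at 14.1. Libraries with a high lowest score also tended to list fewer members. Members are part of those precursors, so that this is no separate observation. The first principal component of the 190 precursors above 0 in all 12 libraries held 32.0% of the variance, with WT from −0.475 to −0.364 and TLR4-KO replicate 1 farthest on the other side at 0.609. WT + EtOH replicate 1 stood apart on the second component (0.765). The part of these differences between libraries in the results below was not tested.

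**Figure D1:**
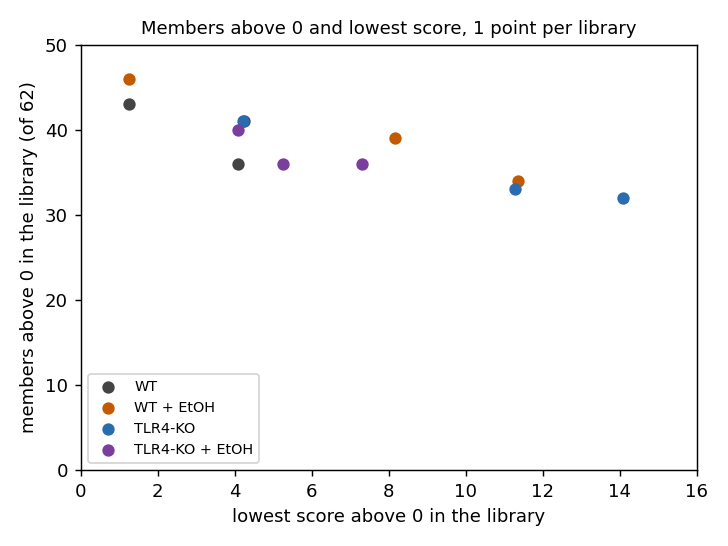
Members above 0 in each library (vertical axis, of 62) against the lowest score above 0 of that library (horizontal axis, no unit), 1 point per library, coloured by group. The number ranges from 46 in WT + EtOH replicate 1, where the lowest score is 1.25, to 32 in TLR4-KO replicate 3, where it is 14.1, and the points of WT replicate 2 and TLR4-KO replicate 1 nearly coincide at 41 members.

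Most members were listed at low scores. The median of their means over the 12 libraries was 7.10, against 33.6 for the other 262 precursors above 0, and 7 members were among the 100 highest means. In all 12 libraries 25 members (40.3%) and 165 of the others (63.0%) were above 0, while 7 members were above 0 in a single library. The share of numbered rows that were members differed along the series. In blocks of more than 1 row it lay between 0 of 6, from 8000 on, and 6 of 11 (54.5%), and it did not fall steadily with the number. At the edge of the rule, the members with the lowest numbers were mmu-mir-1191b (mean 0.606) and mmu-mir-1198 (0.350), and the precursors with the highest numbers below 1000 were mmu-mir-879 (9.68) and mmu-mir-877 (31.8).

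The highest scores belonged to the copies of miR-3074, encoded at separate places. mmu-mir-3074-1 scored 72.7, 67.7 and 70.6 in WT, 63.5, 68.7 and 70.6 in WT + EtOH, 62.3, 68.7 and 70.6 in TLR4-KO and 66.0, 68.7 and 70.6 in TLR4-KO + EtOH. mmu-mir-3074-2 scored 68.7, 63.9 and 66.0 in WT, 61.0, 64.6 and 66.8 in WT + EtOH, 60.7, 66.8 and 66.8 in TLR4-KO and 63.5, 65.6 and 65.6 in TLR4-KO + EtOH. The groups overlapped for both precursors, with means of 68.4 ± 3.10 and 65.0 ± 2.40 (SD over 12 libraries). mmu-mir-3074-1 was the higher in all 12 libraries, by 1.64 to 4.98. They have the same 5p strand, and reads of it cannot be assigned to either copy.

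The related hairpins mmu-mir-1843b and mmu-mir-1843a were also among the 10 highest. mmu-mir-1843b scored 59.3, 59.3 and 59.7 in WT, 58.0, 61.97 and 61.0 in WT + EtOH, 55.5, 60.7 and 60.2 in TLR4-KO and 55.9, 60.9 and 63.0 in TLR4-KO + EtOH. mmu-mir-1843a scored 56.9, 53.0 and 56.9 in WT, 51.4, 55.7 and 56.6 in WT + EtOH, 48.8, 53.9 and 54.3 in TLR4-KO and 50.2, 54.7 and 55.0 in TLR4-KO + EtOH. Neither separated any group from the rest. Their 5p strands share a run of 20 bases but are cut 1 base apart, which shifts the seed. mmu-mir-1843a lies within an intron of Dcaf5 at the small Cajal body RNA Scarna3b, and mmu-mir-1843b within an intron of Cop1 at Scarna3a, so that fragments of those RNAs and miRNA reads cannot be told apart. The sequences are shown for this shift of the seed, in capitals (bases 2 to 8).
miR-1843a-5p: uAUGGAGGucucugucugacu
miR-1843b-5p: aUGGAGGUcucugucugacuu

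Of the 62 members, 56 had an entry in the RefSeq table of GRCm38.p6, from which all sequences are taken, 5′ to 3′ with the seed in capitals. Those with no entry are mmu-mir-3078, mmu-mir-3470a, mmu-mir-3552, mmu-mir-6395, mmu-mir-6952 and mmu-mir-7220. Apart from the copies of miR-3074, a seed was shared by miR-1947-3p and miR-3473d only. mmu-mir-1947 was at 0 in 5 libraries and mmu-mir-3473d in 8. The strands are shown for their common seed.
miR-1947-3p: gCACUGAGcuagcucucccucc
miR-3473d: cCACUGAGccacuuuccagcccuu

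Among the members, 5 lay on the strand opposite to another precursor of the table. The strand setting of the counting is not given in the sources used here, and reads of such partners cannot be told apart without it. mmu-mir-3071, at chr12:109595318-109595397 on the minus strand in the imprinted Dlk1-Dio3 region, overlaps mmu-mir-136 by 62 bases. mmu-mir-3071 scored 63.0, 64.6 and 65.1 in WT, 53.9, 55.5 and 60.7 in WT + EtOH, 48.2, 51.9 and 56.9 in TLR4-KO and 51.5, 56.7 and 57.6 in TLR4-KO + EtOH. mmu-mir-136 scored 64.6, 65.6 and 66.8 in WT, 55.7, 56.7 and 61.97 in WT + EtOH, 51.5, 55.5 and 59.3 in TLR4-KO and 53.2, 58.8 and 61.0 in TLR4-KO + EtOH. Both were higher in each WT library than in any library of the other 3 groups, WT + EtOH included, and they differed from each other by at most 3.62 in a library. For mmu-mir-3071 the difference of −11.9 between TLR4-KO and WT did not pass in limma (adjusted p = 0.0569), but it passed with replicate number as a block (0.0139), with a trend in the variance (0.0498), with only precursors above 0 in at least 3 libraries (0.0272) or at least 1 (0.0282), and without WT + EtOH replicate 3 (0.0426) or TLR4-KO replicate 3 (0.0305), in a range over all alternatives from 0.0139 to 0.220. Within every group its score was lowest in replicate 1 and highest in replicate 3. mmu-mir-3544 and its partner mmu-mir-337, in the same region, were closer still. mmu-mir-3544 scored 49.8, 50.6 and 50.2 in WT, 45.2, 50.2 and 49.8 in WT + EtOH, 61.0, 50.3 and 49.2 in TLR4-KO and 55.5, 51.5 and 49.2 in TLR4-KO + EtOH, within 2.02 of mmu-mir-337 in every library. TLR4-KO replicate 1 was highest for both.

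The remaining pairs did not have like scores. mmu-mir-3065 lies opposite to mmu-mir-338, a miRNA of oligodendrocytes, and opposite to an intron of the kinase gene Aatk. mmu-mir-3065 scored 54.7, 61.0 and 59.3 in WT, 48.9, 53.4 and 54.5 in WT + EtOH, 47.3, 53.2 and 56.6 in TLR4-KO and 45.6, 49.2 and 54.1 in TLR4-KO + EtOH. mmu-mir-338 scored 39.3, 38.5 and 40.4 in WT, 49.8, 41.0 and 38.1 in WT + EtOH, 29.2, 36.5 and 35.5 in TLR4-KO and 45.2, 40.4 and 41.2 in TLR4-KO + EtOH. The first was higher in 11 of 12 libraries, WT + EtOH replicate 1 being the exception. The copies of miR-3074 lie opposite to mmu-mir-24-1 and mmu-mir-24-2, and the contrast was wider there. mmu-mir-24-1 was at 0 in 7 libraries and had a mean of 3.72, against 68.4 for mmu-mir-3074-1, and mmu-mir-24-2 had a mean of 31.9, against 65.0 for mmu-mir-3074-2. Facing mature strands cover each other over 17 to 21 bases by position, and they are shown because they are near complements with unlike seeds.
miR-3074-5p: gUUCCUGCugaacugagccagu
miR-24-3p: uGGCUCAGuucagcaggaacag
miR-3071-3p: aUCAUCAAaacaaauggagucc
miR-136-5p: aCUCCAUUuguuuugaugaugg
miR-3544-5p: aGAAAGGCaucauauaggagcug
miR-337-3p: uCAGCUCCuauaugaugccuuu
miR-3065-5p: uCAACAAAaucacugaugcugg
miR-338-3p: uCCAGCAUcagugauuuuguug

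**Figure D2:**
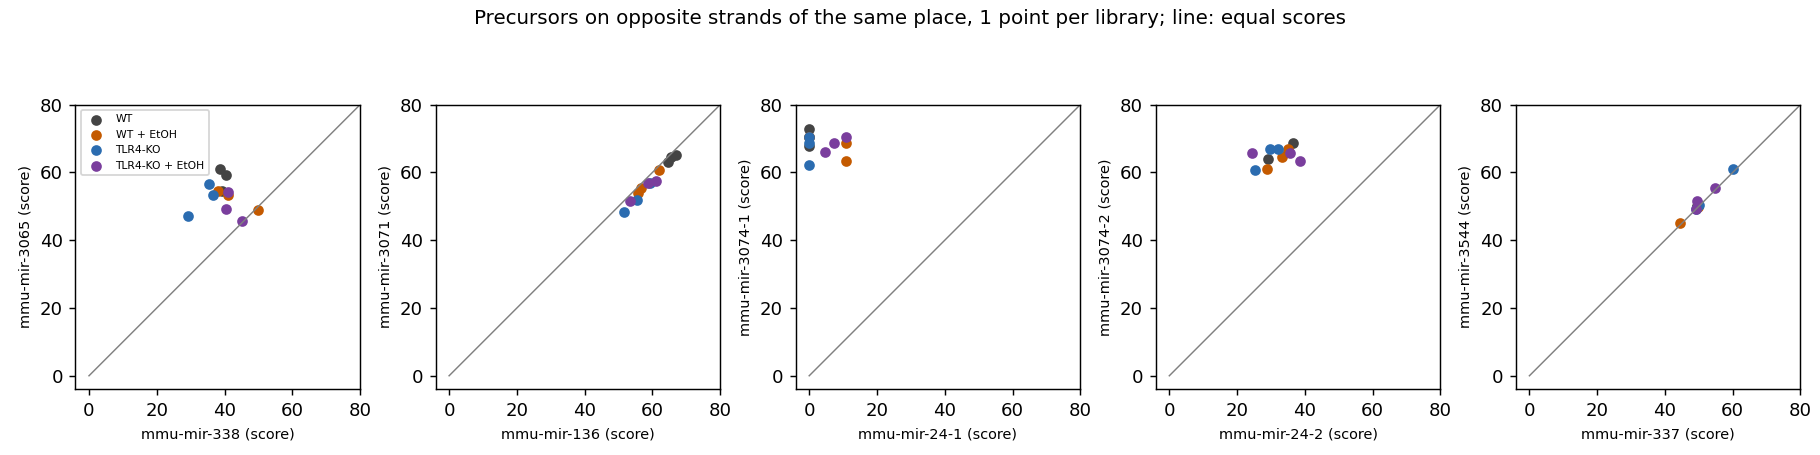
Score of each member (vertical axis) against the score of the precursor on the opposite strand (horizontal axis), 1 point per library coloured by group, with a line at equal scores. Points of mmu-mir-3071 and mmu-mir-3544 lie within 3.62 and 2.02 of the line, while those of the miR-3074 precursors lie far above it.

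Several members share their place with RNAs of another class. mmu-mir-1839 is annotated at a small Cajal body RNA and scored 47.4, 43.5 and 44.6 in WT, 60.2, 46.0 and 43.1 in WT + EtOH, 35.7, 41.7 and 40.9 in TLR4-KO and 57.6, 45.3 and 40.5 in TLR4-KO + EtOH. The first replicates of both ethanol groups were high. TLR4-KO lay below all libraries of WT and WT + EtOH and overlapped TLR4-KO + EtOH, and mmu-mir-1839 was called in no comparison. mmu-mir-6516 lies at another small Cajal body RNA within Snhg20, and mmu-mir-3068 at a small nucleolar RNA within an intron of Alkbh1. The members named next were looked up too or are named for their scores. No overlap with an annotated small RNA was found for them, and transfer RNAs of the nucleus were not searched. mmu-mir-6236 (mean 33.2) and mmu-mir-6240 (22.4) overlap no long gene of the annotation. mmu-mir-2137, in an intron of Zfp185, had the widest range of these, from 2.72 in WT + EtOH replicate 1 to 42.5 in WT + EtOH replicate 3. mmu-mir-5103, in an exon of a long noncoding RNA, had a mean of 35.1. It scored 28.5, 31.9 and 33.7 in WT, 36.8, 40.0 and 43.6 in WT + EtOH, 36.3, 35.3 and 32.4 in TLR4-KO and 33.7, 36.1 and 32.5 in TLR4-KO + EtOH. Between WT + EtOH and WT the difference of 8.80 did not pass in limma (adjusted p = 0.0896). It was called with only precursors above 0 in at least 3 libraries or at least 1. mmu-mir-1983 had a mean of 12.5 and mmu-mir-1306, in an exon of Dgcr8, whose protein is the partner of Drosha, of 19.6. mmu-mir-5100 and the precursors mmu-mir-3470a and mmu-mir-3470b were at 0 in at least 6 libraries. mmu-mir-3059, in an intron of Mgat4c, completes the higher scores with 44.6, 46.3 and 39.6 in WT, 50.6, 49.1 and 44.2 in WT + EtOH, 50.5, 44.4 and 44.7 in TLR4-KO and 43.6, 47.1 and 43.2 in TLR4-KO + EtOH, and its groups overlapped.

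A position at the very end of an intron was common, a feature picked out after the data had been seen and not tested. Of 61 members with a position in the annotation, 15 (24.6%) began or ended exactly at an exon border of a protein-coding gene on the same strand, against 1 of 247 (0.405%) of the other precursors above 0 with a position. How such entries came into the catalogue was not tested. The hairpins of mmu-mir-1224, mmu-mir-1981, mmu-mir-3102, mmu-mir-7068 and mmu-mir-7080 fill an intron of 85, 82, 104, 74 and 67 bases, in Vwa5b2, Marc2, Arhgef17, Cherp and Cpne7. For mmu-mir-3102, mmu-mir-7068 and mmu-mir-7080 the annotation also holds an exon of the same gene at that place. mmu-mir-1224 scored 37.4, 38.6 and 35.5 in WT, 41.2, 46.3 and 49.1 in WT + EtOH, 41.2, 47.9 and 48.5 in TLR4-KO and 35.5, 42.7 and 47.9 in TLR4-KO + EtOH. All WT libraries lay below those of WT + EtOH and of TLR4-KO, while TLR4-KO + EtOH overlapped WT. The differences from WT, 8.37 in WT + EtOH and 8.70 in TLR4-KO, did not pass (adjusted p = 0.349 and 0.352 from limma). In 7 of the 15 a mature strand starts the intron with the bases gu of the splice donor, and in 5 one ends it with the ag of the acceptor. The strands of introns that are filled are shown for these ends.
miR-1224-5p: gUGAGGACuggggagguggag
miR-1224-3p: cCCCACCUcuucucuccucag
miR-7068-5p: gUGAGGCUcaguauggggugg
miR-7068-3p: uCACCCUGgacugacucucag
miR-1981-5p: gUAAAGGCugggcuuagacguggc
miR-3102-5p: gUGAGUGGccaggguggggcug
miR-7080-5p: gUAGGAGCuggagguggguuugg

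The groups were compared with limma over all 589 precursors with a Benjamini-Hochberg adjustment, and a member was called at an adjusted p under 0.05. An exact permutation test of 3 libraries against 3 cannot go below 0.1, so that calls rest on the spread as limma models it. That spread is mostly each precursor's own over the 4 groups. The part shared between precursors holds 0.308 of 8.31 degrees of freedom. Comparisons with WT share its libraries, as do others a common group, and are given side by side. Alternatives included a floor, in which zeros and low scores are raised to 14.1, the highest of the lowest scores above 0 in a library. In all, 4 members were called in at least 1 comparison, mmu-mir-7224, mmu-mir-1981, mmu-mir-6952 and mmu-mir-3087. The last 2 became members only through the group where they are high, so that they had to differ, and their calls support nothing about the groups. Apart from them, mmu-mir-7224 was called in 3 comparisons and mmu-mir-1981 in 1.

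mmu-mir-7224 lies in a long intron of B3galt1, which encodes a galactosyltransferase, at chr2:67675457-67675516 on the plus strand. It scored 29.3, 27.0 and 30.1 in WT, 37.8, 42.5 and 45.7 in WT + EtOH, 40.9, 38.6 and 36.5 in TLR4-KO and 39.4, 38.3 and 38.8 in TLR4-KO + EtOH. All WT libraries lay below all others. It rose with alcohol in WT by 13.2 (standard error 1.95, adjusted p = 0.0140 from limma), with all 3 WT + EtOH libraries above all 3 of WT. This call was lost without WT replicate 2 (adjusted p = 0.0748) or WT + EtOH replicate 2 (0.0596) and in a fit of these groups alone (0.141), in a range over all alternatives from 0.00312 to 0.141. Against WT it was also higher in TLR4-KO, by 9.90 (adjusted p = 0.0384), and in TLR4-KO + EtOH, by 10.0 (adjusted p = 0.0413). The call in TLR4-KO was lost without any 1 of WT replicates 1, 2 and 3 (0.105, 0.124 and 0.0941), WT + EtOH replicate 2 (0.0616), TLR4-KO replicates 1 and 2 (0.119 and 0.103) and TLR4-KO + EtOH replicates 1, 2 and 3 (0.0612, 0.0746 and 0.066). It was also lost with replicate number as a block (0.0658), at the floor (0.0523), in a fit of these groups alone (0.0745) and without all first replicates (0.0886), in a range over all alternatives from 0.0103 to 0.124. The call in TLR4-KO + EtOH was lost without any 1 of WT replicates 1, 2 and 3 (0.103, 0.190 and 0.113), WT + EtOH replicate 2 (0.0767), TLR4-KO replicates 1, 2 and 3 (0.0545, 0.076 and 0.0515) and TLR4-KO + EtOH replicates 1, 2 and 3 (0.117, 0.142 and 0.14). It was lost with the block (0.0707), at the floor (0.0689) and without all first replicates (0.0622), in a range from 0.00939 to 0.190. The difference of the alcohol effects, −13.1, did not pass (adjusted p = 0.0686). It passed with only precursors above 0 in at least 3 libraries (0.0425) or at least 1 (0.0381) and without WT + EtOH replicate 1 (0.0190), in a range from 0.0190 to 0.159. By quantitative PCR, the paper reports for miR-7224 only a tendency to rise with alcohol in WT, and very low amplification.

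mmu-mir-1981, which fills its intron of Marc2 at chr1:184822407-184822488 on the minus strand, scored 34.9, 37.7 and 32.3 in WT, 41.7, 43.9 and 47.4 in WT + EtOH, 44.7, 46.6 and 42.5 in TLR4-KO and 39.4, 41.5 and 43.2 in TLR4-KO + EtOH. Its WT libraries were likewise the lowest. It was called between TLR4-KO and WT, with a difference of 9.64 (standard error 1.94, adjusted p = 0.0406 from limma) and all 3 TLR4-KO libraries above those of WT. The call was lost without any 1 of WT replicates 1 and 3 (0.132 and 0.164), WT + EtOH replicate 2 (0.066), TLR4-KO replicates 1 and 2 (0.119 and 0.132) and TLR4-KO + EtOH replicates 1, 2 and 3 (0.0593, 0.0751 and 0.0584). It was lost with the block (0.0539), at the floor (0.0527), in a fit of these groups alone (0.118) and without all first replicates (0.235), in a range over all alternatives from 0.0232 to 0.235. Between WT + EtOH and WT the difference of 9.39 did not pass (adjusted p = 0.0563), and it passed with only precursors above 0 in at least 3 libraries (0.0464) or at least 1 (0.0403), in a range from 0.0403 to 0.208. The mature strands of these members and of mmu-mir-3087 are shown as the called members with an entry.
miR-7224-5p: gGGUAGGCcccucagugaaga
miR-1981-3p: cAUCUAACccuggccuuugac
miR-3087-5p: cAGGGCAGggcaagaguugag
miR-3087-3p: uAACUCACugucauguccuca

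mmu-mir-6952, at the end of an intron of Scrib, a gene of cell polarity, scored 4.204, 4.23 and 5.23 in WT, 0, 0 and 0 in WT + EtOH, 0, 0 and 0 in TLR4-KO and 0, 0 and 0 in TLR4-KO + EtOH. WT alone was above 0, and a p over these values restates the choice of members. Its scores are the lowest or second lowest level of those libraries, a level that 29, 15 and 25 precursors of WT replicates 1, 2 and 3 share. The fitted difference from WT is −4.56 in each of the other groups (limma, standard error 0.234, adjusted p = 1.85e-05), and it supports no difference between the groups. At the floor the difference is 0 and no call remains (adjusted p = 0.471 with WT + EtOH, 0.457 against TLR4-KO, and 0.150 where the other group is TLR4-KO + EtOH, the highest over all alternatives, the lowest being 2.28e-15). With only precursors above 0 in at least 3 libraries, the call in TLR4-KO + EtOH was lost (0.0732). With quantile normalization the difference from WT was −2.39 in each of the other groups.

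mmu-mir-3087, at the end of an intron of Abca2, a lipid transporter gene, at chr2:25442779-25442834 on the plus strand, scored 0, 0 and 0 in WT, 0, 0 and 0 in WT + EtOH, 0, 0 and 0 in TLR4-KO and 4.08, 5.26 and 7.29 in TLR4-KO + EtOH. It became a member through TLR4-KO + EtOH alone, at the lowest level of each of these libraries, which 5, 4 and 3 precursors share. The fitted difference is 5.54 (limma, standard error 0.651) from TLR4-KO (adjusted p = 0.0129), WT + EtOH (0.0129) and WT (0.00324), and these p likewise restate the choice of members. The first of these calls was lost without TLR4-KO + EtOH replicate 2 (adjusted p = 0.0704) and the second without that library (0.0560) or WT + EtOH replicate 3 (0.0782). The floor again gives a difference of 0 (adjusted p = 0.499, 0.522 and 0.150, the highest over all alternatives, the lowest being 0.000106). Each of the 3 calls was also lost with only precursors above 0 in at least 3 libraries (0.103, 0.0924 and 0.0534) and in a fit of the groups compared alone (0.464, 0.486 and 0.0726). The first and second were lost with quantile normalization (0.119 and 0.0990), where the difference was 3.27, with only precursors above 0 in at least 1 library (0.0753 and 0.0797) and without all first replicates (0.121 and 0.183).

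**Figure D3:**
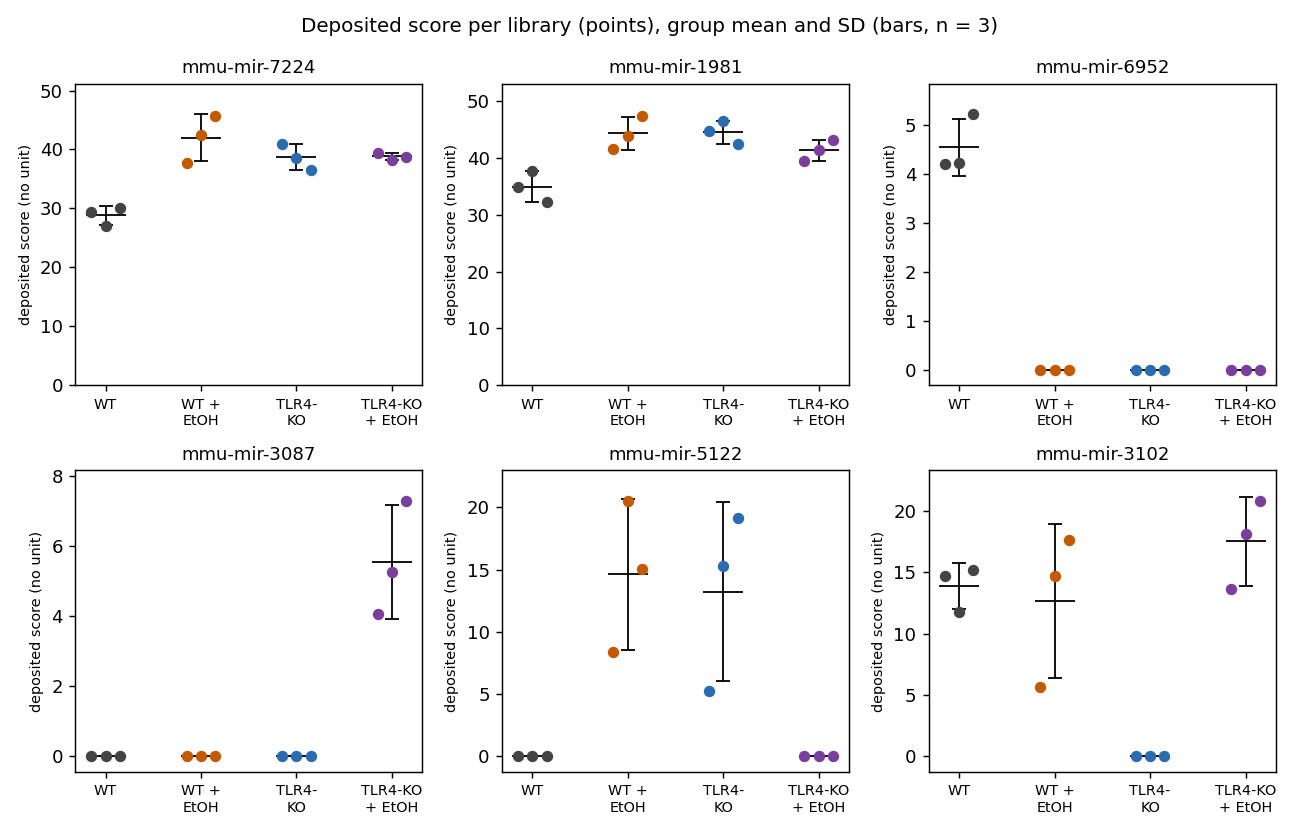
Score per library (points, no unit) in the 4 groups, with the group mean and SD (bars, n = 3), for the 4 called members and for mmu-mir-5122 and mmu-mir-3102. WT lies lowest for mmu-mir-7224 and mmu-mir-1981, and mmu-mir-6952 and mmu-mir-3087 are above 0 in a single group, at scores of at most 7.29.

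Between WT + EtOH and WT, 2 of 62 members were called, 1 higher and 1 lower, against 10 of 589 precursors (1.7%), or 3.09% of the 324 above 0. The remaining 265 are at 0 throughout and could not be called, so that the latter share is the nearer background. The 2 are 3.23% of the members. At an unadjusted p under 0.05 there were 7 members (11.3%), against 22.8% of the 324. Between TLR4-KO and WT, 3 members were called, 2 higher and 1 lower, against 2.55% of all precursors and 4.63% of those above 0, and 10 (16.1%) had an unadjusted p under 0.05, against 22.2%. The split depended on the setting: it was 0 higher and 3 lower with the replicate block (mmu-mir-3071, mmu-mir-3102 and mmu-mir-6952), and 0 higher and 4 lower in a fit of these groups alone (mmu-mir-3083, mmu-mir-3102, mmu-mir-5100 and mmu-mir-6952). It was 4 higher and 4 lower with only precursors above 0 in at least 3 libraries or at least 1. It was 3 and 3 without all first replicates and 2 and 2 with a trend in the variance, and no member was called at the floor. Over all precursors, the calls in this comparison numbered 15 in the main fit, 24 with the block and 13 in the fit of these groups alone. They numbered 31 with either filter, 26 without all first replicates, 16 with the trend and 10 at the floor. For WT + EtOH and WT the split was 4 higher and 1 lower with either of these filters, 2 and 2 without all first replicates and 1 higher at the floor. In a fit of these groups alone it was 0 higher and 2 lower (mmu-mir-1251 and mmu-mir-6952). Over all precursors, the calls there numbered 10 in the main fit and 21 and 22 with the filters. They numbered 26 without all first replicates, 4 at the floor and 7 in the fit of these groups alone. The 3 members called between TLR4-KO and WT are 4.84% of the members, close to the background, and the unadjusted shares are below it.

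Alcohol in TLR4-KO gave no member other than mmu-mir-3087, which makes 1 (1.61%), against 0.34% of all precursors and 0.617% of those above 0. At an unadjusted p under 0.05 there were 8 members (12.9%), against 12.7%. TLR4-KO + EtOH against WT + EtOH gave the same member (1.61%), against 0.509% and 0.926%, with 5 (8.06%) at an unadjusted p under 0.05, against 8.33%. TLR4-KO + EtOH against WT gave 3 members (4.84%), 2 higher and 1 lower, against 1.87% and 3.4%, with 9 (14.5%) at an unadjusted p under 0.05, against 19.4%. That split became 1 higher and 3 lower with the replicate block, 1 higher and 2 lower in a fit of these groups alone and 2 and 2 without all first replicates. It was 1 higher with only precursors above 0 in at least 3 libraries, and none at the floor. All precursors called numbered 11 in the main fit, then 19, 18, 24, 9 and 6 in the same order. For the difference of the alcohol effects, mmu-mir-6952 and mmu-mir-3087 were called (3.23%), against 1.19% and 2.16%, with 11 (17.7%) at an unadjusted p under 0.05, against 22.8%. Both were higher, and the split became 1 higher and 3 lower with only precursors above 0 in at least 3 libraries or at least 1. It was 2 and 1 centred on the library median, with a trend in the variance or without all first replicates. It was 1 higher with quantile normalization or the block, and none at the floor. All precursors called numbered 7 in the main fit, 13 with either filter, 8 centred, 10 with the trend and 7 without all first replicates. They numbered 6 with quantile normalization, 3 with the block and 3 at the floor. The median difference of the members lay between 0 and 1.19 in the 6 comparisons, and that of all precursors above 0 between 0 and 0.335.

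Some members that were not called had zeros in whole groups, and their differences shrink at the floor. They became members only through the groups where they are above 0. The p that follow therefore partly restate the choice of members and support no difference between the groups. mmu-mir-5122 scored 0, 0 and 0 in WT, 8.39, 20.5 and 15.02 in WT + EtOH, 5.23, 15.3 and 19.2 in TLR4-KO and 0, 0 and 0 in TLR4-KO + EtOH. Alcohol went with scores above 0 in WT and with zeros in TLR4-KO, and the difference of the alcohol effects was −27.9 (standard error 5.33, adjusted p = 0.0511 from limma), which did not pass. It passed without WT + EtOH replicate 1 (0.0340), TLR4-KO replicate 1 (0.0125) or all first replicates (0.0369), centred on the library median (0.0480), with a trend in the variance (0.0387) and with only precursors above 0 in at least 3 libraries (0.0406) or at least 1 (0.0343), in a range over all alternatives from 0.0125 to 0.753. At the floor the difference was −4.56 (adjusted p = 0.753). mmu-mir-3102, which fills its intron of Arhgef17, scored 14.7, 11.8 and 15.2 in WT, 5.63, 14.7 and 17.6 in WT + EtOH, 0, 0 and 0 in TLR4-KO and 13.7, 18.1 and 20.8 in TLR4-KO + EtOH. Only TLR4-KO was at 0, and the difference between TLR4-KO + EtOH and TLR4-KO was 17.5 (standard error 2.99, adjusted p = 0.0633). At the floor it was 3.60 (adjusted p = 0.499). It passed without WT + EtOH replicate 1 (0.0130) or replicate 3 (0.0436) and with only precursors above 0 in at least 3 libraries (0.0229) or at least 1 (0.0246), in a range over all alternatives from 0.013 to 0.499. mmu-mir-3083 was at 0 in all TLR4-KO libraries and in WT + EtOH replicate 3, and the difference between TLR4-KO + EtOH and TLR4-KO, 20.6 and at the floor 6.54, did not pass (adjusted p = 0.279, and 0.0347 without WT + EtOH replicate 3, in a range from 0.0347 to 0.62). mmu-mir-3470b was at 0 in all TLR4-KO and TLR4-KO + EtOH libraries, and the difference between TLR4-KO + EtOH and WT + EtOH, −15.1 and at the floor −2.97, did not pass (adjusted p = 0.279).

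The calls depended on the rows in the fit. Rows at 0 in every library have no spread and enter the estimate that limma shares, and they also count in the adjustment over 589. Which of these moved the calls was not tested. Without them, a setting chosen after seeing the data, 324 precursors were fitted. Called were 22 of these between WT + EtOH and WT, 31 between TLR4-KO and WT and 13 for the difference of the alcohol effects. Members made up 5, 8 and 4 of them. The last were mmu-mir-1981, mmu-mir-3102, mmu-mir-5122 and mmu-mir-7224, and mmu-mir-6952 and mmu-mir-3087 were no longer among them (adjusted p = 0.129 and 0.121, in ranges over all alternatives from 1.95e-14 to 1 and from 0.0012 to 1). For mmu-mir-3102 and mmu-mir-5122, with zeros in whole groups, the limit given above holds here too.

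With 1 library above 0 as the requirement, the members listed in a group numbered 47 for WT and 42 for TLR4-KO on water, 50 for WT and 44 for TLR4-KO on ethanol, and 29 (46.8%) were shared by all 4 groups, against 228 (70.4%) of the 324 precursors above 0. Above 0 in 1 group only were 2 members for WT, 4 for TLR4-KO, 1 for WT + EtOH and 3 for TLR4-KO + EtOH, together 10 (16.1%), against 32 (9.88%) of the 324 (10, 8, 6 and 8 in the same order). Of the 10 members, mmu-mir-6952, mmu-mir-3087 and mmu-mir-7236 (6.87 and 11.3 in TLR4-KO replicates 1 and 2) were above 0 in more than 1 library.

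Markers of the cortex were present. All 10 precursors of the neuronal miR-124, miR-128, miR-9 and miR-138 were above 0, with a summed score of 612 to 669 in a library. The 4 oligodendrocyte precursors summed to 49.6 to 89.4 and the 4 erythroid ones, led by mmu-mir-486a, had a mean sum of 231 in TLR4-KO + EtOH to 250.4 in WT. Of the leukocyte and microglia markers 2 were above 0, led by mmu-mir-150 (mean 75.1), with a sum of 104.8 to 129.6 in a library, and mmu-mir-223 was at 0 in every library. Of the choroid plexus markers mmu-mir-449a was at 0. The choroid plexus list, led by mmu-mir-204, summed to 180 to 225, with its highest value in TLR4-KO replicate 3, and the vessel list, led by mmu-mir-143, had mean sums of 196 to 201. In such bulk tissue, fewer cells of a type and less RNA per cell cannot be told apart, and the part of cell composition in the differences above was not tested.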

How the data were processed

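Small RNA of mouse cortex was sequenced in 12 libraries. The submitters' notes name FastQC 0.11.6, cutadapt 1, Bowtie2 2.2.5 and TopHat, with GRCm38. The authors deposited a normalized score per precursor and library, which is not a count, so that no count model was used. The members and lists were chosen with earlier results of these data known. On the scores as they stand, the linear models of limma 3.58.1 (R 4.3.3), moderated by eBayes at its defaults, were fitted to 589 precursors and 12 libraries with 1 mean per group, two-sided, with a Benjamini-Hochberg adjustment over all 589. The moderation had 0.308 prior degrees of freedom, for 8.31 in total. On simulated data with normal noise the test recovered large differences, and smaller ones only in part. The differences were put only into precursors above 0 in all 12 libraries. The check therefore does not cover differences of members with zeros, such as mmu-mir-6952 and mmu-mir-3087. Python 3.11.15, pandas 2.3.3 and numpy 2.4.6 handled the tables, and matplotlib 3.10.9 drew the figures. Positions are from GENCODE M21 (GRCm38), sequences from RefSeq. The positions of some members are not reported here.

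Named are the members called in any comparison, the 3 with the smallest p per comparison and the 10 with the highest mean. Also named are those above 0 in 1 group only in at least 2 libraries and those opposite to another precursor. A further 12 are candidates that were looked up for an overlap with other RNA classes or a host gene. Others named were chosen after their values were seen. Alternatives were quantile normalization, centring, filters, a floor, only the groups compared, replicate block, robust and trend eBayes, merged rows and libraries left out. The libraries already share a highest score and nearly a median, so that the first 2 change higher scores little and are weak checks of them. For mmu-mir-7224 between WT + EtOH and WT the difference was 13.21, then 13.20 with quantile normalization and 13.14 with centring. The sample titles give replicate numbers but no pairing, and the main fit used none. Deviations of same-numbered libraries from their group means correlated by 0.101 to 0.153 between TLR4-KO + EtOH and TLR4-KO. Between TLR4-KO + EtOH and WT + EtOH they correlated by 0.0721 to 0.152. Such low values do not establish a pairing. In each of the other comparisons at least 1 pair was below 0.1.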

Additional observations from a re-analysis of the deposited data

Results flagged for a closer look

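The fitted difference of the alcohol effects between genotypes passed limma's threshold for mmu-mir-6952 (4.56, adjusted p = 3.05e-04) and mmu-mir-3087 (5.54, adjusted p = 0.0280). Each became a member only through the group where it is high, so that these p restate the choice of members and support no difference between genotypes. mmu-mir-6952 was above 0 in WT alone and mmu-mir-3087 in TLR4-KO + EtOH alone, both at the lowest levels of these libraries. With low scores raised to the floor both differences are 0 (adjusted p = 1), and without the rows at 0 in every library neither was called. With quantile normalization the differences were 2.39 for mmu-mir-6952 and 3.27 for mmu-mir-3087. The call of mmu-mir-3087 was also lost with the replicate block (adjusted p = 0.0573), quantile normalization (0.145) and without all first replicates (0.0812), and without any 1 of WT replicates 1, 2 and 3 (0.0624, 0.08 and 0.0792), WT + EtOH replicates 2 and 3 (0.0798 and 0.0855), TLR4-KO replicates 1, 2 and 3 (0.0622, 0.0792 and 0.0575) and TLR4-KO + EtOH replicate 2 (0.0894), in a range over all alternatives from 0.0012 to 1.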

How the results depend on the processing

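Numbers of members called are given in the order WT + EtOH vs WT (2), TLR4-KO vs WT (3), TLR4-KO + EtOH vs TLR4-KO (1), TLR4-KO + EtOH vs WT + EtOH (1), TLR4-KO + EtOH vs WT (3) and the difference of the alcohol effects (2). With a floor they became 1, 0, 0, 0, 0 and 0. With only precursors above 0 in at least 3 libraries they were 5, 8, 1, 0, 1 and 4, and in at least 1 library, chosen after seeing the data, 5, 8, 1, 0, 3 and 4. Quantile normalization gave 0 for alcohol in TLR4-KO and between the ethanol groups, and 1 for the difference of the alcohol effects. A fit of only the groups compared gave 0 in those same 2 comparisons. Without replicate number 1 of all groups the first 4 were 4, 6, 0 and 0. The replicate block gave 1 for the difference of the alcohol effects and moved no other number by over 1.5 times, but it changed the members called. Between TLR4-KO and WT these were mmu-mir-3071, mmu-mir-3102 and mmu-mir-6952 in place of mmu-mir-1981, mmu-mir-6952 and mmu-mir-7224. Between TLR4-KO + EtOH and WT, mmu-mir-3065 and mmu-mir-3071 were called and mmu-mir-7224 was not. Without 1 library the numbers ranged from 1 to 4, 1 to 6, 0 to 3, 0 to 1, 2 to 3 and 1 to 7. Over all precursors, the calls in the same order numbered 10, 15, 2, 3, 11 and 7 in the main fit. With a floor they numbered 4, 10, 0, 0, 6 and 3. The filter at 3 libraries gave 21, 31, 3, 3, 9 and 13, and that at 1 library gave 22, 31, 3, 2, 13 and 13. Without replicate number 1 of all groups the first 4 were 26, 26, 0 and 0. The cause of these shifts was not tested, except that a floor sets low scores equal. No followed difference changed its sign.

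Members above 0 in 1 group only (WT 2, WT + EtOH 1, then TLR4-KO 4 and with ethanol 3) became 1, 0, 1 and 1 with at least 2 libraries required, 1, 0, 0 and 1 with all 3, when WT + EtOH had 31 members above 0 in place of 50, and 0, 2, 5 and 1 above the floor. Without 1 library they ranged from 1 to 5, 0 to 3, 2 to 5 and 2 to 5, those above 0 from 44 to 47, 41 to 50, 36 to 42 and 40 to 44, and those in all groups from 28 to 29. The table holds no counts, so that depth and the counting error of low scores could not be estimated from it.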
